A study of Drosophila melanogaster with 8 samples.

Results

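Among the 15473 transcripts measured in Drosophila S2R+ cells, 29 were clearly expressed in control cells and had a mean level under 7, in the dim range of the arrays, after depletion of M1BP. They were chosen by their own values. The mean of the 4 LacZ RNAi arrays had to be at least 8.5, the mean of the 4 M1BP RNAi arrays under 7, and the log2 difference, M1BP RNAi minus LacZ RNAi, at or below -1 in each of the 4 pairs of arrays with the same replicate number. The 29 make up 0.187% of all transcripts and 0.394% of the 7361 transcripts with a LacZ RNAi mean of at least 8.5. Levels are log2 values made by the authors with RMA, a method that corrects background, brings arrays to a shared distribution and summarizes the probes of a transcript.

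S2R+ is an adherent, haemocyte-like line derived from the Schneider 2 embryonic cells. Both groups were cultures of this line grown at 24 degrees C in medium with 10% serum, and both received 30 µg of double-stranded RNA 5 days before total RNA was taken. This RNA matched M1BP in 4 cultures and, in the 4 controls, the bacterial gene LacZ, which the cells do not carry. The series design calls the cultures biological replicates, and the labels do not say what a replicate number stands for. Total RNA does not tell a lower level in all cells from a loss in some of them.

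M1BP is a zinc-finger protein that binds Motif 1, a core promoter element found near the start sites of many constitutively active Drosophila genes that lack a TATA box. Promoters with this element often hold RNA polymerase II paused shortly downstream of the start. RNA interference lowers a protein by destroying its messenger RNA, and after days of depletion a transcript can be affected directly or through other genes.

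None of the 29 identifiers occurs in the gene table used here, a RefSeq table of Release 6 with 17872 genes. It held 44 of the 15473 identifiers, of which 17 belonged to 1 gene. The 29 are therefore described by their place in the order of the measured mean difference, from member 1 with the largest fall to member 29 with the smallest, and the first 2 also by identifier. The place is a label, since values under 7 have no firm order. Of 11 gene lists (among them haemocyte markers, core promoter factors, ribosomal proteins and cell cycle genes), 2 had any gene tied to a transcript, 3 genes in all, and no list gene was tied to a member. Wdr24 and mio, which encode GATOR2 subunits in amino acid sensing, differed by -0.45 and -0.04. Neither was called higher or lower (limma with group as the only term, adjusted p = 0.0929 and 0.957). LanA, a laminin chain and the haemocyte marker among these 3, had a high level in both groups, 13.3 ± 0.19 in the controls and 13.8 ± 0.18 after depletion (SD, n = 4). LanA differed by 0.51 and was not called higher or lower either (limma with group as the only term, adjusted p = 0.0579). The level of M1BP itself was not analysed here, since the gene table tied it to no row.

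Same-numbered arrays deviated together. Once group means were taken out of all 15473 transcripts, a single component carried 0.549 of the variance left, and in both groups it parted replicates 1 and 2 from replicates 3 and 4. This division was read from the arrays and is not in the labels. The median level of an array lay between 7.91 and 8.01.

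The 29 transcripts lay in the lower part of the expressed range in control cells and had a median log2 difference of -3.17 after M1BP depletion. Their LacZ RNAi means lay between 8.55 and 11.2, with a median of 9.56. The 7361 transcripts with a LacZ RNAi mean of at least 8.5 had a median of 11.5. In 5 members a LacZ RNAi array was under 8.5. The M1BP RNAi means of the 29 lay between 5.68 and 6.97, with a median of 6.48. Their mean differences ran from -5.08 to -1.58, where the median over all 15473 transcripts was 0.00. The rule limits both mean levels and fixes the direction and the least size of these differences. Levels and differences therefore describe the members and are no test. A measured fall of at least 2 was reached by 28 members, of at least 3 by 19, of at least 4 by 6 and of at least 5 by 2. With each array value under 7 set to 7, which gives a bound, the counts were 22, 9, 2 and 0.

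**Figure D1:**
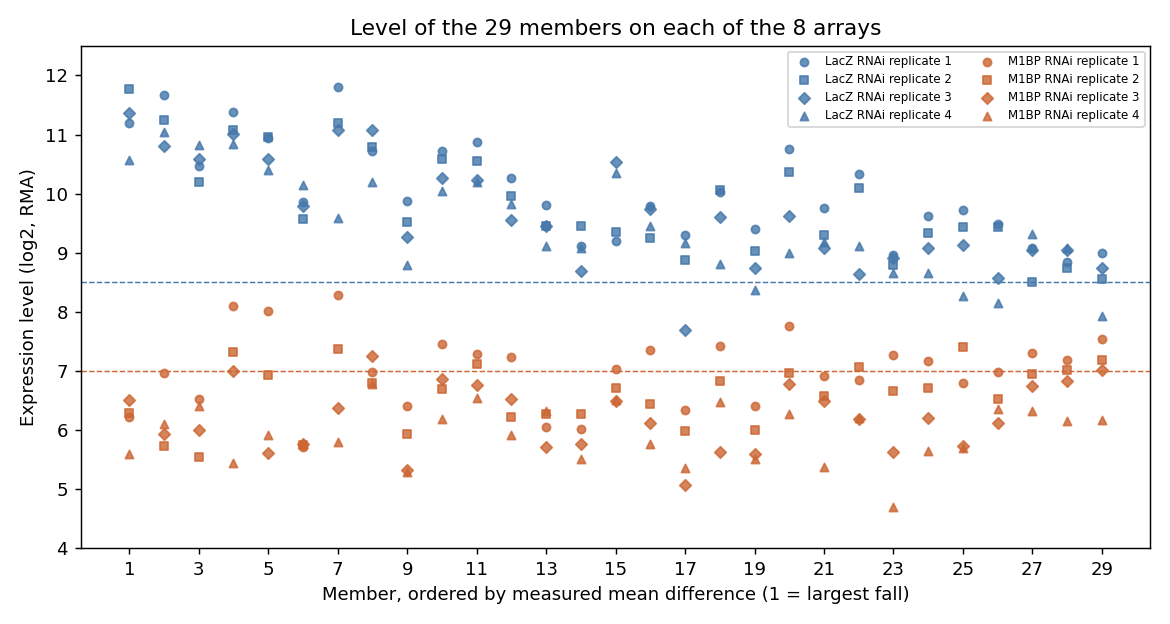
Level of each of the 29 members (log2) on every array, with LacZ RNAi in blue, M1BP RNAi in orange and 1 marker shape per replicate. The dashed lines mark the LacZ RNAi minimum of 8.5 and the M1BP RNAi ceiling of 7 that the rule set on group means. In every member all 4 orange points lie below all 4 blue points, while 18 members have at least 1 orange point at or above 7.

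The largest fall was that of FBtr0084492. It read 11.20, 11.78, 11.36 and 10.57 on LacZ RNAi replicates 1 to 4 and 6.22, 6.29, 6.52 and 5.59 on M1BP RNAi replicates 1 to 4. All M1BP RNAi arrays were under 7, and the lowest control array was 4.06 above the highest depleted one, the widest gap among the 29. Its means were 11.2 ± 0.50 and 6.15 ± 0.39 (SD, n = 4), a difference of -5.08 (SE 0.27).

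FBtr0073363 was next. It read 11.68, 11.24, 10.81 and 11.04 with LacZ RNAi and 6.96, 5.73, 5.93 and 6.10 with M1BP RNAi. M1BP RNAi replicate 1 stood highest of its group, close to 7, and the groups were 3.85 apart at their nearest arrays. The difference of means was -5.01 (SE 0.28). These were the members with the highest control levels. Whether the control level bears on the size of a fall was not tested.

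With no detection calls, levels under 7 were taken here as not separable from background, and folds that end there are given as bounds. With each array value under 7 set to 7 before averaging, the bound was at least 18.8-fold lower for FBtr0084492 and at least 18.3-fold for FBtr0073363. The bound was at least 16-fold for these 2 members, at least 8-fold for 9 and at least 4-fold for 22. It ran down to 2.58-fold for member 29, with a median of 5.75. Ordered by this bound, members 1, 2, 16 and 29 held their places and the rest moved by up to 11 places. Member 4 came to the third place, at 13.2-fold, and member 6 went to place 12, at 7.17-fold.

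How far the members reached into the dim range differed between them. Among the 6985 transcripts with a LacZ RNAi mean under 7, the median M1BP RNAi mean was 5.55, the upper quartile 6.01 and the 90th percentile 6.51. All 29 members lay above that median, 5 lay under the upper quartile and 13 above the 90th percentile. In 11 members all 4 M1BP RNAi arrays were under 7, in 13 members 3 were, in 4 members 2 and in 1 member 1. A mean under 7 is thus not the same as loss of signal on every array, and "lost to background" describes part of the set.

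Member 6 ended at the most even level. It read 9.85, 9.57, 9.79 and 10.15 with LacZ RNAi and 5.71, 5.75, 5.76 and 5.77 with M1BP RNAi. The 4 depleted arrays differed by less than the controls did, with an SD of 0.03 against 0.24 (n = 4), and their mean of 5.75 lay under the upper quartile of the dim transcripts. Member 3 also went low on all arrays, from 10.46, 10.20, 10.59 and 10.83 to 6.52, 5.55, 5.998 and 6.40. Member 9 went from 9.87, 9.51, 9.26 and 8.80 to 6.40, 5.93, 5.33 and 5.28, with the arrays of either group in the same order.

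Members 4, 5 and 7 kept a level of at least 8 on M1BP RNAi replicate 1. Member 4 read 11.37, 11.08, 11.004 and 10.85 with LacZ RNAi and 8.11, 7.32, 6.997 and 5.45 with M1BP RNAi. Member 5 read 10.95, 10.96, 10.59 and 10.39 against 8.02, 6.92, 5.60 and 5.92. In both the controls lay close together and the depleted arrays spread widely, with SDs of 0.22 against 1.12 in member 4 and 0.28 against 1.09 in member 5 (n = 4). Member 7 varied in both groups, from 11.80, 11.19, 11.09 and 9.59 to 8.28, 7.37, 6.38 and 5.79, with replicate 4 lowest in each.

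Member 23 had the lowest single value of the set. It read 8.96, 8.80, 8.92 and 8.66 with LacZ RNAi and 7.27, 6.66, 5.62 and 4.69 with M1BP RNAi. Its controls were the most even of the 29, with an SD of 0.13, and its depleted arrays the most uneven, with an SD of 1.14 (n = 4). An SD over 1 among the M1BP RNAi arrays occurred in members 4, 5, 7 and 23, and in 19 of the 29 the M1BP RNAi SD exceeded the LacZ RNAi SD.

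Some members broke the common order of the arrays. Member 15 was higher on LacZ RNAi replicates 3 and 4 (10.54 and 10.34) than on replicates 1 and 2 (9.19 and 9.35), while its M1BP RNAi arrays read 7.04, 6.71, 6.48 and 6.51. Its difference was therefore -2.16 in pair 1 and -4.06 in pair 3. Member 17 had the lowest mean under M1BP RNAi, 5.68, and the lowest control array, 7.69 on LacZ RNAi replicate 3, against 9.30, 8.87 and 9.17 on the others. The M1BP RNAi value of member 17 was also lowest on replicate 3, at 5.07, so that pair fell by 2.62.

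Members 11 and 12 have consecutive transcript identifiers, the 1 such case among the 29. Member 11 read 10.88, 10.55, 10.23 and 10.20 with LacZ RNAi and 7.29, 7.11, 6.77 and 6.55 with M1BP RNAi. Member 12 read 10.26, 9.96, 9.56 and 9.83 against 7.24, 6.21, 6.53 and 5.92. Their mean differences, -3.53 (SE 0.21) and -3.43 (SE 0.27), lay within 1 SE of each other, and the sources used here do not say whether they belong to 1 gene or share probes.

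**Figure D2:**
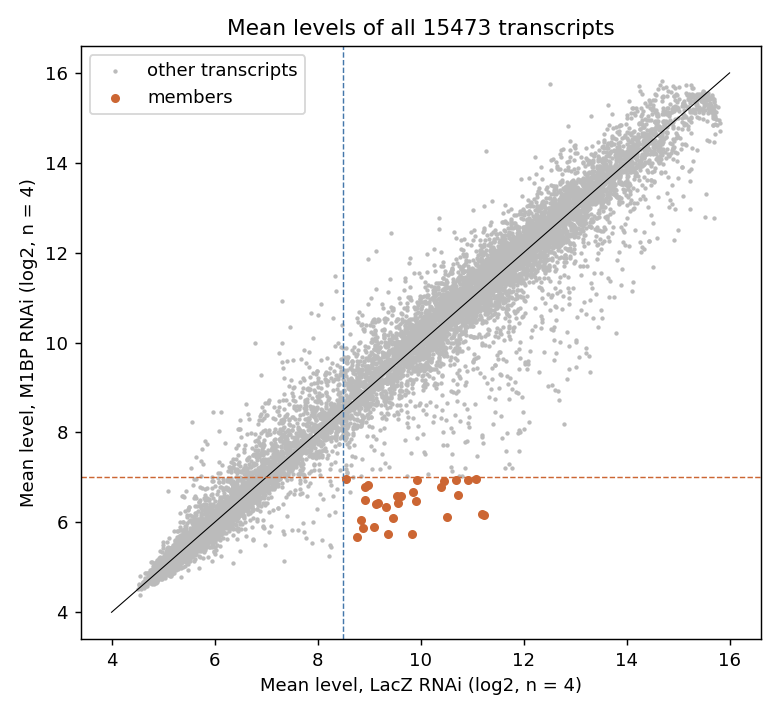
Mean level with LacZ RNAi (x axis, log2) against mean level with M1BP RNAi (y axis, log2) for all 15473 transcripts, 4 arrays per mean, with the 29 members in orange, the line of equality and the 2 thresholds of the rule dashed. The members fill the field right of 8.5 and below 7, apart from the band along the line in which most transcripts lie.

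The edges of the set were not sharp. Member 29, nearest to the thresholds on both levels, read 8.999, 8.55, 8.74 and 7.93 with LacZ RNAi and 7.54, 7.18, 7.02 and 6.16 with M1BP RNAi, so 1 depleted array was under 7. Just outside the control threshold was a transcript with a LacZ RNAi mean of 8.37 and an M1BP RNAi mean of 6.74. Just outside the M1BP RNAi ceiling were transcripts that fell from 8.69 to 7.01, from 9.73 to 7.02 and from 10.8 to 7.03. A transcript that went from 8.63 to 6.67 missed by its smallest pair difference, -0.99, and was the remaining 1 of the 30 transcripts with a LacZ RNAi mean of at least 8.5 and an M1BP RNAi mean under 7.

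In all 29 members the M1BP RNAi arrays lay below all LacZ RNAi arrays, as they did in 6.54% of the 15473 transcripts. The gap between the nearest arrays of the groups ran from 0.39 in member 29 to 4.06 in FBtr0084492, with a median of 2.16. It was at least 1 in 27 members, at least 2 in 15 and at least 3 in 4. In the limma fit on the whole table, 29 of 29 members were called lower at an adjusted p under 0.05, against 4.25% of all transcripts. A second fit, blocked by replicate number, again called 29, against 9.49% over the whole table. The rule used this contrast, so nothing is read from these counts.

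The rule required a fall of at least 1 in every pair, and the size of the fall varied. Over the 29 members the median difference was -2.997 in pair 1, -3.18 in pair 2, -3.40 in pair 3 and -3.65 in pair 4, while the medians over all 15473 transcripts were 0.01, 0.00, 0.01 and 0.02. Single differences ran from -5.51 to -1.37. Pair 1 held the smallest fall of a member in 13 cases and pair 4 the largest in 13. A fall of at least 1 in every pair also occurred in 278 expressed transcripts that kept an M1BP RNAi mean of at least 7. Their medians in pairs 1 to 4 were -1.89, -1.85, -2.28 and -2.31. Among these 278, pair 1 held the smallest fall in 130 and pair 4 the largest in 144. As measured, every pair reached -2 in 24 members, in 11 every pair reached -3 and in 2 every pair reached -4. The differences of member 11 were the most even across pairs, with a range of 0.22, and member 15 covered 1.90 and member 23 2.28, the widest range.

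**Figure D3:**
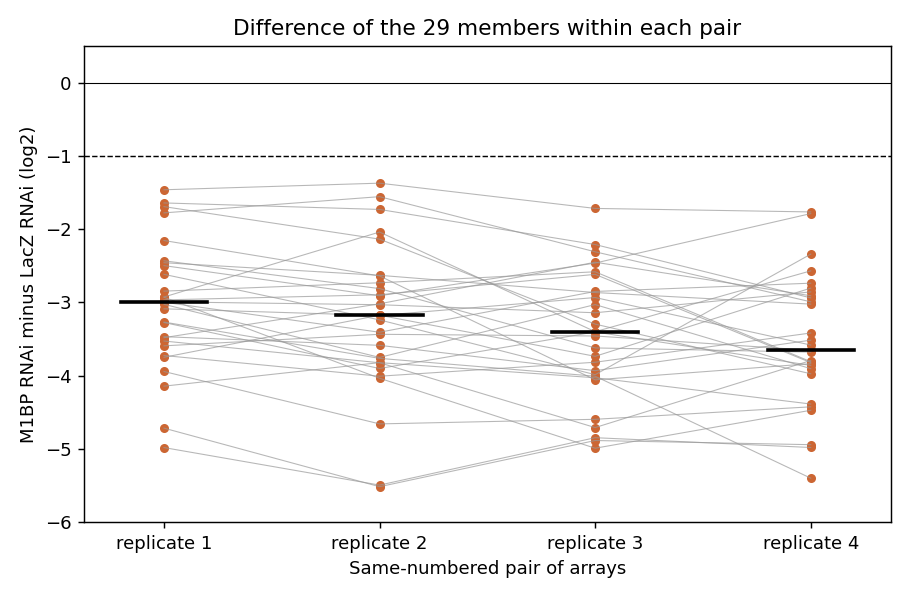
M1BP RNAi minus LacZ RNAi (log2) for the 29 members in each same-numbered pair of arrays. Each point is a member, grey lines join its 4 pairs, the black bars are the medians (-2.997, -3.18, -3.40 and -3.65), and the dashed line is the limit of -1 that the rule set on every pair.

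The members moved with the replicate number in the controls too. Their median level was 9.85, 9.51, 9.56 and 9.18 on LacZ RNAi replicates 1 to 4 and 7.04, 6.69, 6.18 and 5.92 on M1BP RNAi replicates 1 to 4. LacZ RNAi replicate 1 was the highest control array in 19 members and LacZ RNAi replicate 4 the lowest in 17. M1BP RNAi replicate 1 was the highest depleted array in 22 members and M1BP RNAi replicate 4 the lowest in 19. As a result 15 members were at or above 7 on M1BP RNAi replicate 1, 7 on replicate 2, 2 on replicate 3 and 0 on replicate 4.

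Transcripts of the same control level were divided evenly between replicate numbers. The mean of LacZ RNAi replicates 3 and 4 was lower than that of replicates 1 and 2 in 23 of 29 members, with a median difference of -0.46. Of the 3143 non-members with LacZ RNAi means in the members' range, 51.4% were lower, with a median of -0.02. With M1BP RNAi, 26 of 29 members were lower on replicates 3 and 4, with a median of -0.65, and 52.5% of the same non-members, with a median of -0.03. This comparison between replicate numbers was not tested, since the division was read from the same arrays, and what the numbers stand for cannot be told from the labels.

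**Figure D4:**
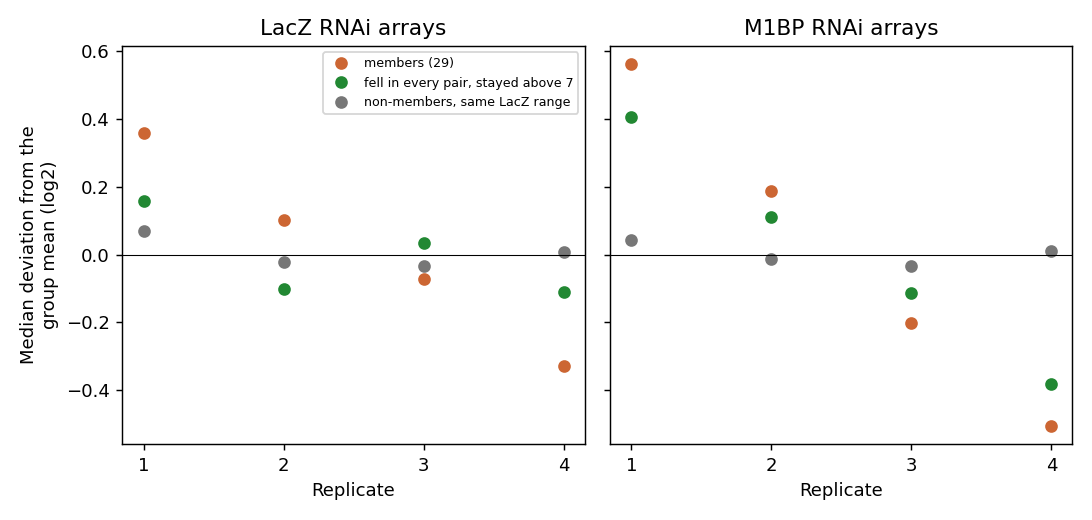
Median deviation from the group mean (log2) on each array for the 29 members (orange), the 278 transcripts that fell by at least 1 in every pair and stayed at a mean of at least 7 (green) and the 3143 non-members with control means in the same range (grey). The orange points run from 0.36 to -0.33 in the controls and from 0.56 to -0.51 in the depleted cultures. The green points lie between 0.16 and -0.11 in the controls and run from 0.40 to -0.38 in the depleted cultures. The grey points stay within 0.07 of 0.

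The spread between arrays was also read for the members and the rest, with no test. The median SD over the 4 LacZ RNAi arrays was 0.37 in the members, 0.30 in the 3143 non-members of the same control range and 0.23 over all transcripts. Over the 4 M1BP RNAi arrays it was 0.53, 0.28 and 0.21. In the 278 reduced transcripts that stayed at a mean of at least 7, the median SD also rose. It was 0.28 with LacZ RNAi and 0.42 with M1BP RNAi, and their median SE was 0.23, or 0.14 with the block. The 3143 non-members had a median M1BP RNAi level of 10.2, against 6.48 in the members, so they match the members on the control level only. The median SE of a member's difference was 0.31, or 0.17 with the replicate number as a block, against 0.16 and 0.12 over all transcripts.

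Transcripts that met the same conditions on the controls and the pairs but kept an M1BP RNAi mean of at least 7 numbered 278, so the members were 9.45% of the 307 that fell by at least 1 in every pair. The 278 started higher, at a median of 11.9, and ended at 9.63, with a median difference of -2.03. From a control level of 8.5 to 9, 7 transcripts ended under 7 and 6 stayed above it. From 9 to 10 the counts were 13 and 20, from 10 to 11 they were 6 and 49, and from 11 to 12 they were 3 and 70. Both control level and end level enter the rule, so this is its description. The 278 shared the movement with replicate number in the depleted cultures, where 237 were lower on replicates 3 and 4 (median -0.56), and in the controls 155 were lower (median -0.06).

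Rows with identifiers next to a member's, differing by 1 in the number, were read as a comparison. The sources used here do not say whether such a row belongs to the member's gene, lies near it or shares its probes. Of the 29 members, 28 had such a row on the arrays, giving 48 distinct neighbours that were not members. Of these, 25 had a LacZ RNAi mean of at least 8.5, 4 lay between 7 and 8.5 and 19 were under 7. The 19 dim rows had little room to fall. Among the 25 expressed rows the median difference was -0.03, with a range from -2.98 to 0.77. In the limma fit 3 of these 25 (12%) were called lower, and the share over expressed transcripts alone was not counted. Over all 48 the median was 0.02, with 1 called higher and 4 (8.33%) called lower, against 4.25% of all transcripts. The lower ones included a neighbour of member 5, which went from 13.5 to 10.5, a difference of -2.98 with pair values from -3.16 to -2.68. A neighbour of member 17 went from 8.26 to 5.45, a difference of -2.81, and missed membership by its control level. The other lower neighbours differed by -0.81, beside member 10, and -0.90, beside member 28. All neighbour calls come from the fit without the replicate block. With the block 1468 transcripts of the whole table were called lower, against 658 without it, and the neighbours were not counted in that fit. Both rows next to FBtr0084492 were expressed, at control means of 10.9 and 11.5, and differed by -0.07 and 0.25, while both rows next to FBtr0073363 were dim in both groups.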

How the data were processed

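RNA of 8 cultures was measured on 1-colour NimbleGen arrays, per the labels' protocols. The deposited table holds log2 values for 15473 FlyBase transcript identifiers. The authors used RMA (version not given), per the submitters' processing notes, and the values show the scale. Probe sequences, detection calls, raw intensities and the genome build are not given in the sources used here, and precision is limited by 4 arrays per group. The members, lists and thresholds, the level of 7 among them, were chosen with earlier results of these data known. By rule, members tied to 1 gene (0 here) and the 2 unnamed members with the largest fall were to be named, and others given by rank, count and range. The whole table was tested by limma 3.58.1 under R 4.3.3 (lmFit, eBayes, two-sided, group as the only term, Benjamini-Hochberg adjusted over all transcripts). Values are means ± SD over 4 arrays, and SE is limma's moderated error. After subtraction of group means, arrays of the same number correlated across transcripts, with r = 0.66, 0.66, 0.48 and 0.67 for replicates 1 to 4, all over 0.1, so the numbers were treated as pairs in the fit with a block. Alternatives covered thresholds, scaling, the fit and leaving out arrays.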

Additional observations from a re-analysis of the deposited data

How the results depend on the processing

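The number of transcripts under the rule, 29, followed the ceiling on the M1BP RNAi mean, with 16 at a ceiling of 6.5 and 50 at 7.5. Other settings gave 22 to 38, and leaving out 1 replicate number 28 to 34, of which 22 to 28 were among the 29. Without replicate 4, 22 of the 29 remained. Within replicates 1 and 2 there were 25 and within replicates 3 and 4 there were 42, sharing 18 and 25 with the 29 (divisions chosen after seeing the data). The median difference over the members, -3.17, was -2.52 with values under 7 set to 7, which is a bound, and -3.47 within replicates 3 and 4. Without 1 replicate number it ran from -3.24 to -3.09. Over all transcripts, 658 were lower, 501 to 667 without 1 array and 1468 with the replicate block, which changed no call of a member. The members called lower numbered 29 in every fit except that without LacZ RNAi replicate 3, which called 28. There member 29 had an adjusted p of 0.0501 (limma), and its adjusted p was under 0.05 in the other 13 alternative fits. FBtr0084492 and FBtr0073363 kept direction and call in all 14. The members were chosen by this contrast on these arrays, so nothing is read from their calls. The cause of each move was not tested. With no detection calls in use, values under 7 limit every fold to a bound.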

Other observations

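The opposite passage was rarer under the mirrored rule, chosen after seeing the data. Transcripts with a LacZ RNAi mean under 7, an M1BP RNAi mean of at least 8.5 and a rise of at least 1 in every pair numbered 4, against the 29 that went the other way. Of the 15473 transcripts, 6985 had a mean under 7 with LacZ RNAi and 6941 with M1BP RNAi.

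On single arrays, the count of members in the deep part of the dim range differed between replicates. The upper quartile of the transcripts with a LacZ RNAi mean under 7 lay between 5.998 and 6.04 on the 4 M1BP RNAi arrays. Under it were 1 member on replicate 1, 6 on replicate 2, 12 on replicate 3 and 15 on replicate 4. Across the 29 members, control and depleted means had r = 0.28, a description of points that share 8 arrays and a rule that limits both levels. The values of each member in each group, their pair differences and the medians were examined with Dixon's test, which sets the gap between the outermost value and its nearest neighbour against the whole range of the 4. The ratio passed Dixon's critical value for 4 values in 0 of 90 sets. The highest ratios were 0.79 for the pair differences of FBtr0084492 and 0.78 for those of member 21, and the low LacZ RNAi replicate 3 of member 17 gave 0.73.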
